A study of Drosophila melanogaster with 29 samples.

Results

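The genes described here encode subunits of Mediator and of TFIID, the complexes through which promoters recruit RNA polymerase II. Membership was set by symbol, with earlier results of these data known. It takes in every gene named MED or Taf followed by a digit, together with *CycC*, *Cdk8*, *kto*, *skd* and *Tbp*. The reference annotation held 45 such symbols, and 32 of them had a row among the 7602 genes of the deposited expression table. Of the 32, 21 belong to Mediator and 11 to TFIID.

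Mediator is a large complex that carries signals from DNA-bound transcription factors to RNA polymerase II. Its core is divided into a head, a middle and a tail held together by the MED14 backbone, and a separable kinase module of Cdk8, cyclin C, Med12 and Med13 can dock on that core. TFIID consists of the TATA-binding protein and a set of TBP-associated factors (TAFs), which recognise core promoters and nucleate the preinitiation complex. In the fly eye, *kto* (Med12) and *skd* (Med13) are known for their role in patterning the developing eye disc.

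The series profiled photoreceptor nuclei of *Drosophila melanogaster* in 29 samples of 9 groups. Nuclear RNA was sequenced in 3 libraries, which form 1 group, and the 26 samples of chromatin assays were not analysed here. All 3 RNA libraries came from male flies 10 days after eclosion, raised under 12 h light and 12 h dark at 25 °C. Libraries were prepared from 10 ng of RNA. The flies were white mutant (w) and carried on the third chromosome UAS-GFP-Msp300KASH inserted at attP2, rh1-GAL4 and the rosy allele ry[506]. The labels also give the transgenes w+ and ry+ marker copies, and both genes had reads: w had 6793, 6966 and 6130 normalized counts and ry 229, 309 and 88.6 in replicates 1, 2 and 3. Replicate 3 was the lowest for both. In the chi-square test given further on, both differed between the libraries (adjusted p = 2.03e-08 for w and 9.08e-18 for ry). The reason was not tested. The GFP fusion marks the nuclear envelope, and the labels say that RNA was extracted from isolated GFP-tagged nuclei of frozen heads. The driver rh1-GAL4 is active in the outer photoreceptors, so nuclei of the inner photoreceptors would not be expected to carry the tag. There was no RNA control of another genotype, age, sex or cell type, and the number of flies per library is not given in the sources used here.

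The table held 3781302, 3051440 and 3769863 reads for replicates 1, 2 and 3. The Mediator and TFIID genes together received 8474, 6801 and 8421 of them. Normalized counts are reads put on a common scale by 1 size factor per library, and 1 read was worth 1.29, 1.49 and 1.32 normalized counts. The labelled cell type was checked against marker lists, and all 10 photoreceptor markers had a row, at 7404 to 71061 normalized counts and 5.36% to 5.73% of all counts per library. Glial markers summed to 0.00920% to 0.0112% of counts with 7 of 7 in the table. Cone and pigment cell markers summed to 0.0308% to 0.0340% with 7 of 7, most of it from *pros*. Muscle markers summed to 0.150% to 0.154% with 9 of 10, most of it from *Tm1*, and fat body and blood cell markers to 0.00721% to 0.00764% with 5 of 8. None of the 9 germline and testis markers looked up had a row. In a pool of nuclei, fewer cells that express a gene and less RNA per cell cannot be told apart, which applies to every level below.

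The 13 Mediator and TFIID genes without a row were short. Their spans, measured from the first to the last annotated base with introns included, ran from 560 to 1513 bp with a median of 839 bp. Those with a row spanned 722 to 34621 bp with a median of 2572 bp. In the head of Mediator, *MED11*, *MED18*, *MED20*, *MED28* and *MED30* lacked a row, and in the middle *MED4*, *MED9* and *MED10* did. TFIID here means every gene with a *Taf* symbol, and *Tbp*. Those without a row were *Taf8*, *Taf10*, *Taf10b*, *Taf11* and *Taf12L*. Whether the product of each, *Taf12L* included, is part of the general complex was not checked. Taf10 is the histone-fold partner of Taf3 and Taf8, and Taf11 that of Taf13, so these partner pairs could not be compared. The kinase module, the tail and *MED14* were complete, with 4 of 4, 5 of 5 and 1 of 1 genes. The gene *ix*, which encodes the MED29 subunit but lies outside the symbol rule, had no row either and spans 727 bp.

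Short genes had a row less often than long ones across the annotation as a whole. Of the 13 Mediator and TFIID genes spanning at most 1 kb, 4 had a row, against 15.6% of all protein-coding genes of that span. Between 1 and 2 kb, 8 of 12 had a row, against 42.2%. All 8 genes between 2 and 3 kb had one, against 62.0%, as did the 2 between 3 and 5 kb, against 70.0%. The same held for the 8 genes between 5 and 10 kb, against 79.1%, and for the 2 above 10 kb, against 86.8%. In every class of span the share with a row was above that of protein-coding genes, and in all it was 32 of 45 against 54.0% of 13951. The filter that chose the table's genes is not given in the sources used here, so the absence of a row is not a measurement of the gene.

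**Figure D1:**
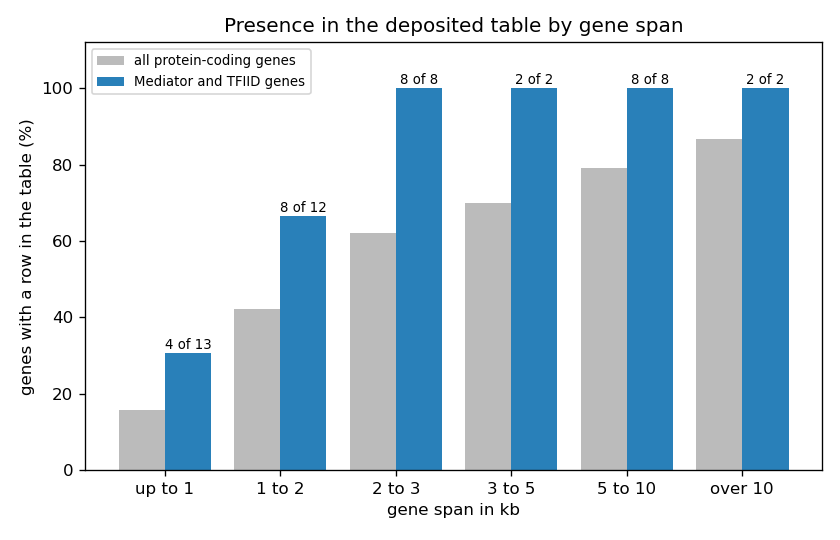
Share of genes with a row in the table (y axis, percent) by gene span in kb (x axis), for all protein-coding genes in grey and for the 45 Mediator and TFIID symbols in blue, with their counts above the bars. The share of Mediator and TFIID genes goes from 4 of 13 at up to 1 kb to all genes in each class above 2 kb.

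Within the kinase module, *skd* held nearly all of the reads. This gene encodes Med13, the subunit that links the kinase module to core Mediator in yeast, and lies on chromosome 3L at positions 20992814 to 21027434 (FBgn0003415). It had 5183, 4791 and 5161 normalized counts in replicates 1, 2 and 3, from 4030, 3208 and 3904 reads, a mean of 5045 ± 220 (SD, n = 3). Replicate 2 was the lowest and the other libraries lay close together. *skd* made up 94.6% ± 0.31 (SD, n = 3) of the counts of its module and 66.5% ± 0.84 of those of all 21 Mediator genes.

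The other members of the kinase module were much lower. *kto*, which encodes Med12, the subunit through which Cdk8 is activated in yeast and human cells, had 255, 242 and 288 normalized counts, with replicate 3 the highest. Cyclin C, encoded by *CycC*, is the partner that Cdk8 needs for activity, and its gene had 25.7, 11.9 and 18.5 normalized counts from 20, 8 and 14 reads. *Cdk8*, the kinase itself, had 15.4, 5.97 and 9.25 normalized counts from 12, 4 and 7 reads, which made it the lowest of the 32 genes by mean count (10.2 ± 4.80). Replicate 1 was the highest and replicate 2 the lowest for both *CycC* and *Cdk8*, and neither passed the test between libraries given further on (adjusted p = 0.472 and 0.515).

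These genes differ in span, so their levels were compared per kilobase of span, a scale on which intronic reads, if they were counted, stay included. If only exonic reads were counted, this division lowers genes with long introns against compact ones. Ratios per kb between genes, here and below, are then not ratios of transcript level. On it *skd* had 146 ± 6.36, *kto* 31.4 ± 2.87, *CycC* 15.6 ± 5.73 and *Cdk8* 6.42 ± 3.02 normalized counts per kb (SD, n = 3). The level per kb of *skd* was 4.65-fold that of *kto*, a log2 ratio of 2.22 ± 0.10 over the 3 libraries. Against *Cdk8* the log2 ratio per kb was 4.61 ± 0.63, with library values from 3.95 to 5.20. *CycC* lay above *Cdk8* per kb in 3 of 3 libraries, by a log2 ratio of 1.32 ± 0.15, and *kto* above *CycC* by 1.08 ± 0.52. The kinase and its cyclin were thus the lowest of the module per kb in every library, and the Med13 gene the highest. With 3 libraries the smallest two-sided p of an exact sign-flip permutation test is 0.25, so no p is given for these ratios.

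**Figure D2:**
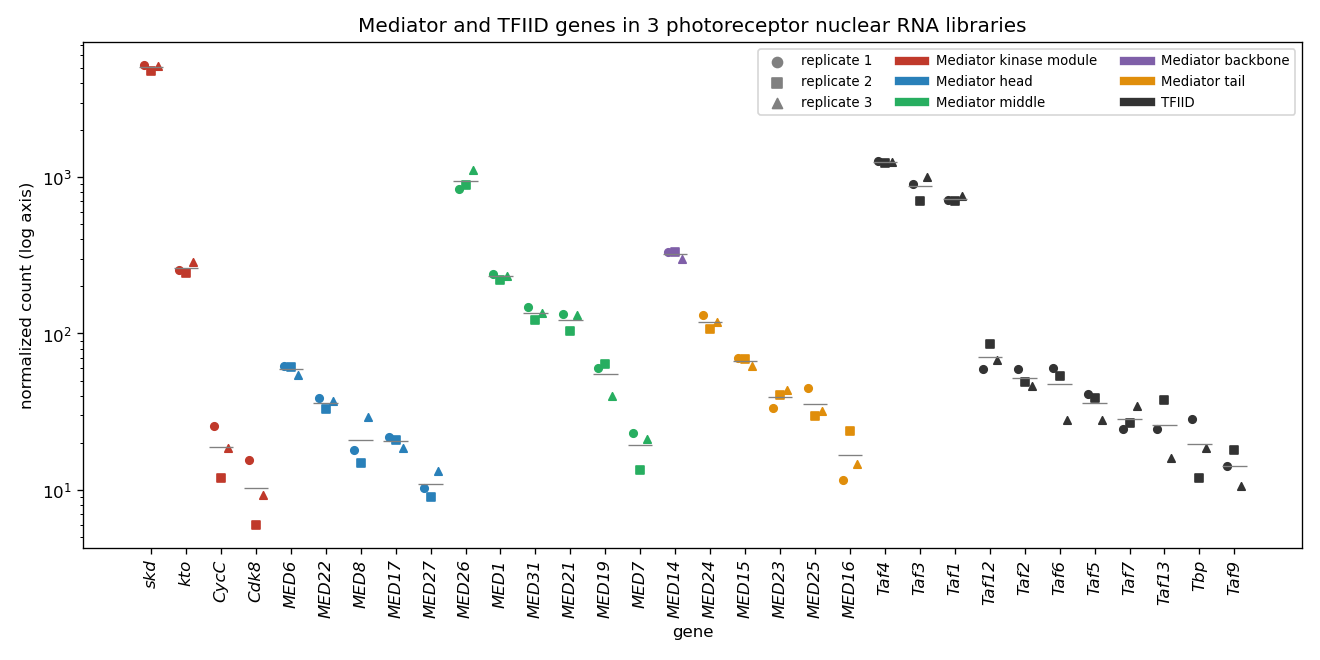
Normalized counts (y axis, log scale) of the 32 Mediator and TFIID genes (x axis) in replicates 1 (circles), 2 (squares) and 3 (triangles), coloured by module, with a grey line at each mean. *skd* stands at 4791 to 5183 in all 3 libraries, while *Cdk8* ranges from 5.97 to 15.4.

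The backbone gene *MED14* (chromosome 3L, 593246 to 599239) encodes the subunit that joins head, middle and tail. It had 333, 332 and 300 normalized counts in replicates 1, 2 and 3, with replicate 3 slightly below the others. Its level per kb was 53.7 ± 3.11. *MED17*, the scaffold of the head, had 21.9, 20.9 and 18.5 normalized counts and 9.31 ± 0.789 per kb. The *MED14* level per kb was 5.77-fold that of *MED17*, a log2 ratio of 2.53 ± 0.05 that stayed between 2.48 and 2.57 in the 3 libraries. The difference between the backbone gene and the head scaffold gene was thus far larger than its spread.

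In the middle module, *MED26* had the most counts. MED26 contacts TFIID and elongation factors in human cells, and the fly gene lies on chromosome 4 at 778516 to 788978 (FBgn0039923). It had 844, 886 and 1104 normalized counts from 656, 593 and 835 reads, with replicate 3 above the others. *MED1*, whose human counterpart binds nuclear hormone receptors, had 239, 221 and 234 normalized counts, which overlapped closely between libraries. Per kb the 2 genes stood at 90.3 ± 13.3 and 37.8 ± 1.53.

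*MED31* and *MED21*, small conserved subunits of the middle, were high for their span. *MED31* had 147, 122 and 135 normalized counts and 101 ± 9.08 per kb. *MED21*, which pairs with MED7 in yeast Mediator, had 134, 103 and 131 normalized counts and 120 ± 16.6 per kb. *MED7* had 23.2, 13.4 and 21.2 normalized counts, or 14.0 to 24.1 per kb, so the genes of this pair differed per kb by more than the sum of their SDs. *MED19*, whose fly product is a cofactor of Hox and GATA factors, had 60.5, 64.2 and 39.7 normalized counts, with replicate 3 the lowest.

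Both small genes with high levels per kb overlap a neighbouring gene over more than 20% of their span, and so do 3 other members. The span of *MED31* lies wholly inside that of *slx1*, which had 17.0 ± 4.51 normalized counts. Of the *MED21* span 25.1% lies inside *Set1*, a histone methyltransferase gene with 1074 ± 158 normalized counts and 141 normalized counts per kb. *MED24* shares 30.1% of its span with *CG7387*, *MED6* 42.5% with *Naa80* and *CG8478*, and *Taf3* 22.0% with the antisense gene *asRNA:CR45126*. The strand setting of the counting is not given in the sources used here, so how reads in these overlaps were divided is unknown and the 5 levels are uncertain. Of the other genes with a row, 13 have no overlapping gene at all.

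The 5 measured head genes had a median of 20.7 normalized counts, which was the lowest of the modules before division by span. They were also short, with a median span of 1198 bp, and counts followed span, as described further on. The tail, not the head, had the lowest median per kb, at 12.8. The 5 head genes without a row are left out of these medians. *MED6* had 61.7, 61.2 and 54.2 normalized counts, *MED22* 38.6, 32.9 and 37.0, and both varied little between libraries. *MED8* had 18.0, 14.9 and 29.1 normalized counts from 14, 10 and 22 reads, with replicate 3 the highest. *MED27* stood at 10.3, 8.96 and 13.2 from 8, 6 and 10 reads. Per kb, *MED22* reached 50.1 ± 4.10, above *MED6*, *MED8*, *MED17* and *MED27* at 9.03 to 21.5. At 722 bp it is also the shortest of the 32 genes, and the values of the 4 others did not exceed 30.2 per kb in any library.

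Tail subunits receive many of the signals from transcription factors. *MED24* had 131, 106 and 118 normalized counts and was the highest of the 5. *MED15*, which binds SREBP in animals, had 69.5, 68.7 and 62.1 normalized counts. *MED23*, a target of Elk1 signalling in mammals, had 33.4, 40.3 and 43.6, and *MED25*, the target of the VP16 activator in human cells, had 45.0, 29.9 and 31.7. *MED16* had 11.6, 23.9 and 14.5 normalized counts, with replicate 2 the highest. In levels per kb the tail genes ran from 6.05 ± 2.33 for *MED16*, the lowest of all 32, to 22.3 ± 2.37 for *MED24*, with a median of 12.8.

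In TFIID, the 3 genes *Taf4*, *Taf3* and *Taf1* held 90.6% ± 1.65 (SD, n = 3) of the counts of the 11 measured genes. *Taf4* (chromosome 3L, 16113212 to 16121651, FBgn0010280) encodes a core subunit that pairs with Taf12 through a histone fold, and it had 1262, 1232 and 1252 normalized counts from 981, 825 and 947 reads. Its coefficient of variation (CV, the SD over the mean) was 1.21%, the smallest of the 32 genes, against 3.30% from counting alone. *Taf1* (chromosome 3R, 6646889 to 6656048), the largest TAF and a scaffold of the complex, had 716, 705 and 761 normalized counts. *Taf3* (chromosome 4, 459887 to 466828, FBgn0026262), whose PHD finger binds methylated histone H3 lysine 4 in mammals, had 909, 699 and 1007 from 707, 468 and 762 reads. Only *Taf3* of these differed clearly between libraries, with replicate 2 the lowest.

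Per kb the order within TFIID was *Taf4* at 148 ± 1.78, *Taf3* at 126 ± 22.7 and *Taf1* at 79.4 ± 3.26. The *Taf4* level per kb exceeded that of *Taf1* 1.86-fold, a log2 ratio of 0.90 ± 0.05 found in 3 of 3 libraries, whereas *Taf4* and *Taf3* did not differ by more than their SDs. *Taf12*, the histone-fold partner of Taf4, followed with 59.2, 85.1 and 67.4 normalized counts and 54.1 ± 10.2 per kb. The log2 ratio of *Taf4* to *Taf12* per kb was 1.47 ± 0.28.

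The other TFIID genes were low. *Tbp*, which encodes the TATA-binding protein, had 28.3, 11.9 and 18.5 normalized counts from 22, 8 and 14 reads, with replicate 1 the highest. Its level per kb of 13.5 ± 5.67 lay below that of *Taf1* by a log2 ratio of 2.64 ± 0.61, and 3 of 3 libraries had this order. *Taf7*, whose product binds and restrains Taf1 in mammals, had 24.4, 26.9 and 34.4 normalized counts, and its level per kb was lower than that of *Taf1* by a log2 ratio of 2.75 ± 0.20. *Taf6*, the histone-fold partner of Taf9, had 60.5, 53.8 and 27.8 normalized counts from 47, 36 and 21 reads, with replicate 3 the lowest. *Taf9* had 14.1, 17.9 and 10.6, and the log2 ratio of *Taf6* to *Taf9* per kb was 0.74 ± 0.36.

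*Taf5*, a WD40-repeat core subunit, had 41.2, 38.8 and 27.8 normalized counts. *Taf2*, which takes part in binding the initiator element, had 59.2, 49.3 and 46.3. *Taf13* had 24.4, 37.3 and 15.9 normalized counts from 19, 25 and 12 reads, the widest relative spread among the TFIID genes apart from *Tbp* (CV 41.8% and 42.0%). All 3 ranges overlapped those of several other TFIID genes, and no order among *Taf2*, *Taf5*, *Taf7*, *Taf9* and *Tbp* per kb, from 12.0 to 15.2, exceeded the SDs.

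Ordered by level per kb over all 32 genes, *Taf4* and *skd* led, followed by *Taf3*, *MED21*, *MED31*, *MED26* and *Taf1*. Of the 31 steps between neighbours in this order, 3 exceeded the sum of the SDs of the neighbours. These steps separated *Taf1* from *Taf12*, *MED22* from *MED1*, and *kto* from *MED24*. From *MED24* at 22.3 down to *MED16* at 6.05, neighbouring genes did not differ beyond their spread. The median over the 32 genes was 21.5 ± 1.41 normalized counts per kb, against 19.3 ± 0.12 for all genes of the table, and 20 of 32 lay above the table's median per kb. Without the 5 genes that share over 20% of their span with a neighbour, a variant added once the data had been seen, the median was 17.9.

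**Figure D3:**
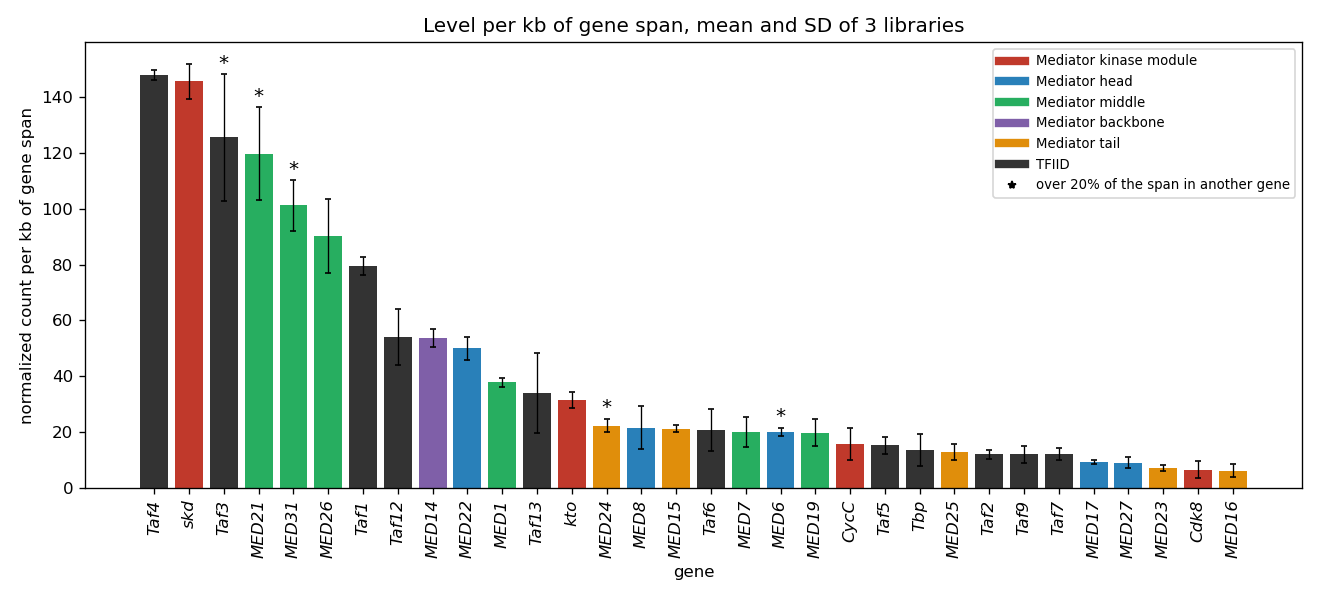
Mean normalized count per kb of gene span (y axis) of the 32 Mediator and TFIID genes in descending order (x axis), coloured by module, with error bars of 1 SD over 3 libraries. *Taf4* (148) and *skd* (146) lead, levels drop to 54.1 after *Taf1*, and stars mark the 5 genes with over 20% of their span inside another gene.

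The counts themselves followed gene span. Across the 32 genes, Pearson's r between log2 span and log2 mean count was 0.82 and Spearman's rho 0.72. Over 7529 genes of the table both were 0.49. These are correlations across genes of the same 3 libraries, which are not independent replicates, and are given as a description. *skd*, with the longest span of 34621 bp, was at the top, and *Taf4*, *MED26*, *Taf3* and *Taf1*, with spans of 6942 to 10463 bp, came next. *MED31* and *MED21* lay above other members of similar span, and *MED23*, at 5498 bp, lay below.

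**Figure D4:**
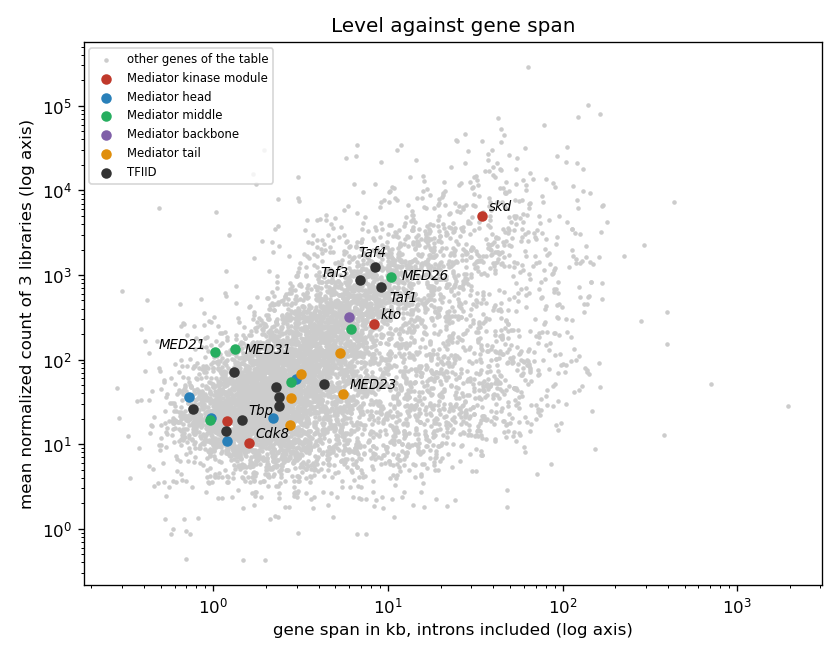
Mean normalized count over 3 libraries (y axis, log scale) against gene span in kb with introns included (x axis, log scale), for other genes of the table (grey) and the 32 Mediator and TFIID genes (coloured by module). The coloured points climb from *Cdk8* at 10.2 normalized counts to *skd* at 5045.

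As groups, the complexes were compared with the table by their medians. The median log2(normalized count + 1) of the Mediator genes minus that of all genes was 0.06, 0.07 and -0.37 in replicates 1, 2 and 3, a mean of -0.08 ± 0.25 that turned to 0.07 without replicate 3. For the TFIID genes it was 0.03, -0.24 and -0.71, a mean of -0.31 ± 0.38, and -0.60 against genes averaging 10 or more. For Mediator that value was -0.37. Of the 32 genes, 14 lay above the table's median of 56.8 normalized counts, 2 fell in its top 10%, and 16 had under 50 normalized counts. The medians leave out the 13 genes without a row: with those set to 0, they were -1.11 for Mediator and -1.08 for TFIID. In that variant the table's median still covered only genes with a row, and 54.0% of all protein-coding genes had one. It therefore sets unlike sets of genes side by side and is not a level of the complexes. Both complexes held genes with high and with low counts. The numbers of members above the table's median and in its top 10% did not exceed the table's own shares. Counts also followed gene span, as given above, so this mix is not a result about the complexes.

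The median log2 level per kb of the kinase module minus that of core Mediator was 0.21, -0.26 and 0.07 in the 3 libraries. The mean difference of 0.01 ± 0.24 was smaller than its SD, and it changed sign between libraries. Together the 32 genes held 0.223% ± 0.0006 of all normalized counts, of which Mediator held 0.158% and TFIID 0.0654%. This share stayed within 0.223% to 0.224% in the 3 libraries.

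Differences between the libraries were tested for each gene averaging 10 or more normalized counts, by a chi-square test of its reads, with expected reads proportional to the size factors. P-values were adjusted by Benjamini-Hochberg over 6903 genes. The labels do not say whether the libraries came from separate groups of flies, so the p-values measure only the spread between these samples, which may be technical. All 32 Mediator and TFIID genes were tested, and 3 were called at an adjusted p under 0.05, against 9.76% of all genes. The called genes were *Taf3* (adjusted p = 1.02e-07), *MED26* (5.45e-06) and *skd* (0.0170). Calls depend on depth. At 200 or more normalized counts, 3 of 8 members were called against 26.5% of all genes, and from 10 to 200, 0 of 24 were called against 2.62%. These shares are close to the background given the small numbers, and are not a result about the complexes.

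*Taf3* and *MED26* lie on chromosome 4, the small dot chromosome of the fly, and are the only members there. Of 74 chromosome 4 genes tested, 54.1% were called, *Taf3* and *MED26* among them. Chromosome 4 genes had high counts, with a median of 708 against 70.9 over all genes tested, and at 200 or more normalized counts 74.1% of them were called, against the 26.5% above. Replicate 3 was the highest library for 63 of the 74 genes, as it was for both members. The median log2 ratio of replicate 3 to replicate 2 was 0.34 over chromosome 4 genes and 0.03 over all genes, and at 200 or more counts it was 0.34 and 0.07. Chromosome 4 held 3.65%, 3.60% and 4.13% of counts in replicates 1, 2 and 3. The log2 ratio was 0.53 for *Taf3* and 0.32 for *MED26*, or 0.50 and 0.29 above the median gene. The lowest value lay in replicate 2 for 57 of these genes, *Taf3* included, and in replicate 1 for 14, among them *MED26* at 844 against 886 in replicate 2. In replicate 3 both genes thus moved with their chromosome, while below it *MED26* had the less common order. The part of the chromosome in the spread was not tested.

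The call of *skd* was of another size. Its libraries spanned 4791 to 5183 normalized counts, and its log2 ratio of replicate 3 to replicate 2 was 0.11, or 0.08 above the median gene. When the libraries were scaled to equal totals this ratio was -0.02 (adjusted p = 0.716), and with a trimmed mean of log ratios it was 0.08 (adjusted p = 0.133), so the call rests on the size factors. Equal totals moved the median ratio of all genes from 0.03 to -0.10. *Taf3* (0.40 and 0.50) and *MED26* (0.19 and 0.29) kept their direction and their call under both scalings. *Taf4*, with more counts than either, had a ratio of 0.02 and an adjusted p of 0.959.

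**Figure D5:**
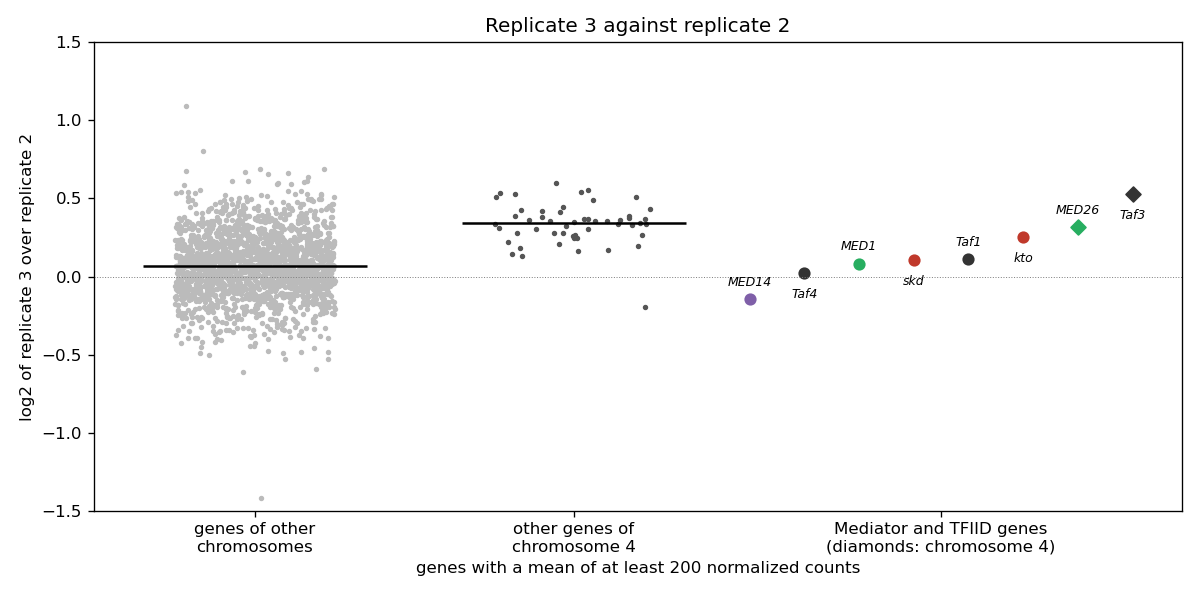
Log2 ratio of replicate 3 to replicate 2 (y axis) for genes at 200 or more normalized counts, on other chromosomes (left), on chromosome 4 (middle, members left out) and for the 8 Mediator and TFIID genes at that level (right, diamonds on chromosome 4). Black lines are medians, 3 genes lie beyond the axis, and *Taf3* (0.53) and *MED26* (0.32) are the highest of the 8 members.

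In pairs of libraries, *skd* (adjusted p = 0.0291) and *Taf3* (0.000567) were called between replicates 1 and 2, 2 of 31 members tested against 3.52% of all genes. Between replicates 1 and 3, *MED26* (1.91e-05) and *Taf6* (0.0480) were called, 2 of 32 against 4.99%. Between replicates 2 and 3, *skd* (0.0229), *Taf3* (1.87e-08) and *MED26* (0.000875) were called, 3 of 31 against 9.87%. *Taf6* was lowest in replicate 3 but was not called over all libraries together, with an unadjusted p of 0.00839 and an adjusted p of 0.0752. Scaled to equal totals it was called over all libraries (adjusted p = 0.0476), and with a trimmed mean of log ratios it was not (0.0726). *Taf13* likewise had an unadjusted p of 0.0390 and an adjusted p of 0.206. At an unadjusted p under 0.05 stood 5 of 32 members, these and the called genes, against 20.9% of all genes.

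At the median, the low members varied about as much as their read numbers allow, with exceptions such as *Taf6* (CV 36.5% against 17.0% from counting). For the 16 genes with a mean of 10 to 50, the median CV was 26.2%, against 25.7% from counting alone and 22.9% for all genes at that level. For the 8 genes from 50 to 200 it was 11.9%, against 14.1% from counting, and for the 8 at 200 or more it was 5.08%, against 4.13%. Differences between libraries in genes such as *Cdk8*, *CycC*, *Tbp* and *MED16* were not detectable at this depth. Replicate 1 was the highest library for 19 of the 32 genes and for 31.2% of all genes tested. Replicate 2 was the lowest for 17 of the 32 and for 39.7% of all genes. Under equal totals the numbers were 13 and 11 of 32, against 24.8% and 24.1% of all genes, so both members and background depend on the scaling.

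Other transcription machinery was measured in the same libraries. *Trf2* encodes the TBP-related factor that serves promoters without a TATA box in flies. It had 768, 555 and 836 reads where *Tbp* had 22, 8 and 14, over spans of 23740 bp for *Trf2* and 1451 bp for *Tbp*. Genes overlapping the *Trf2* span were not looked up. Per kb the log2 ratio of *Trf2* to *Tbp* was 1.68 ± 0.52, higher in 3 of 3 libraries. The other TBP-related gene, *Trf*, had no row. Of the 5 testis TAF genes, 4 were looked up, and only *mia* had a row, at 7.31 normalized counts from 2, 5 and 9 reads.

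Among 5 lists of other transcription machinery, 44 of 62 genes had a row. Of 43 tested, 3 were called between the libraries, against 9.76% of all genes. Each of the 3 averaged 200 or more normalized counts, where 26.5% of all genes were called. The 14 measured general factors, from TFIIA to TFIIH, had a median of 29.8 normalized counts, and the 5 measured RNA polymerase II subunits a median of 17.0 with *Polr2A* called (adjusted p = 0.0357). The 13 measured SAGA genes outside the TAFs had a median of 75.0, with *Nipped-A* called (1.18e-06), and the 11 elongation factors a median of 123. *Trf2* was the third called gene (2.64e-05). The medians of the 32 Mediator and TFIID genes over the means of the genes were 49.5 normalized counts and 20.9 per kb. Both lay inside the range of these lists. List medians per kb ran from 15.5 to 34.5, apart from the TBP-related list, whose only measured gene, *Trf2*, had 41.0.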

How the data were processed

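The authors deposited log2 values for 7602 genes in 3 nuclear RNA libraries, under a name that says DESeq2-normalized counts. The submitters' processing notes name Trimmomatic, STAR, Bowtie2, SAMtools, deepTools, DESeq2, MACS2 and HOMER and the builds dm6 and BDGP6, without roles. The counting program, strand setting, annotation release, gene filter and whether intronic reads were counted are not given in the sources used here. The values are log2(normalized count + 1): back on the linear scale, 100% were whole multiples of the worth of 1 read in their library (tolerance 0.001), so reads were recovered. PCR copies cannot be told from molecules, and errors from counting cover counting error only.

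Genes were matched by FlyBase identifier to symbols (7553 of 7602) and by symbol to gene spans of the RefSeq annotation of Release 6 plus ISO1 MT (7531 genes). Exon and coding lengths were not used here, so the planned length alternatives, and the promoter motif search, were not run. The planned ratio of *Taf10b* to *Taf10* had no values. No sequences are shown.

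Spread between libraries was tested by a chi-square test of the recovered reads, with expected reads proportional to size factors, at a Benjamini-Hochberg threshold of 0.05. It covered the 6903 genes averaging 10 or more normalized counts. The design had called for this test only where reads could be recovered. Ratios, medians and shares are means ± SD over the 3 libraries, with no test. Alternatives were equal totals, a trimmed mean of log ratios (30% trimmed from each end), minimum means of 1 and 50, a threshold of 0.01, pseudocounts of 0.1 and 10 in place of 1, and each library left out. The members and lists were chosen with earlier results of these data known. Genes named are the members, the genes of the lists, and genes that overlap members or were found by position. Analyses used Python 3.11.15, numpy 2.4.6, scipy 1.17.1, pandas 2.3.3 and matplotlib 3.10.9.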

Additional observations from a re-analysis of the deposited data

How the results depend on the processing

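No paired analysis was possible because the labels give only 1 group of RNA libraries. Across all genes 674 of 6903 were called (9.76%), and 448 at a threshold of 0.01. Under equal totals the number was 674, and with a trimmed mean of log ratios 625. It was 681 (9.87% of genes tested) without replicate 1, 342 (4.99%) without replicate 2 and 243 (3.52%) without replicate 3. Of the members, 2 to 3 were called in every setting run, but not always the same: equal totals lost *skd* (adjusted p = 0.716) and gained *Taf6* (0.0476). The *skd* ratio of replicate 3 to replicate 2 went from 0.11 to -0.022 under equal totals. The Mediator median relative to the table (-0.08) was -0.37 when members and table were limited to means of 10 or more, -1.11 with genes without a row at 0, and -0.16 to 0.066 (without replicate 3) with a library left out. The TFIID median (-0.31) was -0.60 under that limit and -1.08 with genes without a row at 0. With a library left out it was -0.47 to -0.10. In the variants with genes at 0, only members were filled in, and the table's median still covered only genes with a row. The kinase module minus core Mediator per kb (0.01) was 0.34 without division by length, -0.095 without replicate 1, -0.026 without replicate 3, 0.14 without replicate 2, and 0.19 without overlapped genes, a variant added once the data had been seen. The share of counts (0.223%) was 0.272% without the 10 highest genes. The median level per kb (21.5) was 17.9 without overlapped genes and 20.7 to 22.1 with a library left out. Apart from the construction of each alternative, the cause was not tested. Depth limits the 16 genes under 50 normalized counts, whose median CV of 26.2% lay near the 25.7% from counting, although that of *Taf6* was 36.5% against 17.0%.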
